A study of Mus musculus with 3 samples.

Results

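The inducible heat shock chaperones described here are 10 genes: Hspa1a, Hspa1b, Hspb1, Dnajb1, Hsph1, Hsp90aa1, Hspa8, Hspe1, Hspd1 and Bag3. They are 10 of the 32285 genes counted. They were listed by name and chosen by their UMI counts in these same libraries, compared across cell types and groups, so every difference below is a description. Transcripts were counted in single cells of mouse non-small cell lung cancer, as UMIs (unique molecular identifiers, each standing for 1 captured transcript), in 3 libraries made with 10x Genomics 3′ v3.1 chemistry, 1 library per group. Groups carry the names PBS, PD-L1 and AI-Exo, which the labels do not spell out. The series' title speaks of exosomes that inhibit autophagy and of immune tolerance, and its design text of immune cells after a drug. No source used here gives the strain, age, tumour line, dose, time of sampling, sort or number of animals pooled. With 1 library per group, treatment, animal and handling of the library cannot be told apart, no test was made, and every interval below is a 95% interval that covers counting error only.

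Heat shock chaperones hold unfolded proteins, refold them or pass them on for degradation. When unfolded protein builds up, the transcription factor HSF1 is released, assembles and binds inverted GAA repeats, called heat shock elements, upstream of these genes. Heat, oxidants, fever, activation of lymphocytes and the dissociation of tissue into single cells are all known to induce them, often together with immediate early genes such as Fos and Jun. Hspa1a and Hspa1b are neighbouring genes that encode near-identical inducible Hsp70 proteins, and Hspa8 encodes the Hsp70 that cells make without stress. Dnajb1 is a J-domain protein that loads clients on Hsp70, Hsph1 and Bag3 release nucleotide from it, and Bag3 also links it to selective autophagy. Hsp90aa1 encodes the inducible cytosolic Hsp90, Hspb1 a small heat shock protein that keeps clients from aggregating, and Hspd1 with Hspe1 the chaperonin of mitochondria and its lid.

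The upstream sequence of 8 of the 10 genes was found in the RefSeq promoter table of build GRCm38.p6, and Hsp90aa1 and Hspa8 were not among its entries. The 250 bases before the start are shown for Hspa1a, Hspa1b and Hspb1, because the sum of the first 2 is the main measure below and the last was carried by few cells. Capitals mark paired repeats, GAANNTTC or TTCNNGAA, each of which reads the same on both strands and may overlap the next.
Hspa1a, chr17:34972157-34972406, minus strand: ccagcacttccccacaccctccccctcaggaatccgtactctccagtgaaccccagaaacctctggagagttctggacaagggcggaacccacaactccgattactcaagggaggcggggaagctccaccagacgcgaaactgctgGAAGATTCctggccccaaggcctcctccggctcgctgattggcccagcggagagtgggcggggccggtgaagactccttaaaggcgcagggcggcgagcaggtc
Hspa1b, chr17:34959239-34959488, minus strand: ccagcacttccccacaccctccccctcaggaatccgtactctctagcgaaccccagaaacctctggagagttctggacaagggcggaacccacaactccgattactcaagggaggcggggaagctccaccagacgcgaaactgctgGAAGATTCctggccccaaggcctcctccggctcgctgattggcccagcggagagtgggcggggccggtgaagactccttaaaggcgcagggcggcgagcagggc
Hspb1, chr5:135887669-135887918, plus strand: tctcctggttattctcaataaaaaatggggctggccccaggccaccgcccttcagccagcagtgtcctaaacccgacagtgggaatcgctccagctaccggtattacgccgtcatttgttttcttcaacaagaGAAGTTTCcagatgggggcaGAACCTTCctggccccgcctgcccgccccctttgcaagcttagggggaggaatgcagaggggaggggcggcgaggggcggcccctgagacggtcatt
Both Hspa1 genes had 1 pair, 104 bases before the start, and Hspb1 had 2, at 97 and 117 bases. The starts of the Hspa1 genes lie 12918 bases apart on chromosome 17, and 247 of their 250 upstream bases (98.8%) were identical. The differences were C44T, T47C and T249G, from Hspa1a to Hspa1b, with positions counted from 1 at the 5′ end of the 250-base window, and none lay in the pair.

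For the other genes only 30 bases around the repeats are shown, since the rest of these windows can overlap transcribed sequence.
Hsph1, chr5:149636351-149636380, minus strand: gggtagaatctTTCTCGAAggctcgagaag
Hspe1, chr1:55088053-55088082, plus strand: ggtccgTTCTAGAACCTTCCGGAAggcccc
Hspd1, chr1:55088053-55088082, minus strand: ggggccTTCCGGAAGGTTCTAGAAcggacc
Hspe1 and Hspd1 are read in opposite directions from 1 shared stretch, and the run of 3 overlapping pairs printed for them is the same DNA on its 2 strands. A pair was found in 6 of the 8 genes, in 7 of their 11 windows and in 4218 of all 32851 windows (12.8%). A run of 3 repeats, which is 2 overlapping pairs and so shorter than the printed run, was found in 2 of the 8 genes. It was found in 153 of all windows (0.5%), and the longer run was not counted over all windows. The windows of Dnajb1 and Bag3 held no pair in these letters, which says nothing of sites elsewhere.

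Hspa1a and Hspa1b could be counted apart only where their transcripts differ. In GENCODE vM21, 58.8% of the 50-base windows of the Hspa1a transcript also occur in Hspa1b, and 62.3% of those of Hspa1b occur in Hspa1a. Of the 351 such windows in the last 400 bases of each, where 3′ reads mostly fall, 0 were shared. No source used here names the annotation the authors counted against, so the sum of both genes (Hspa1 below) is the main measure and their separate values are less certain.

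The PBS library kept 9359 barcodes, PD-L1 9697 and AI-Exo 10457 under the filter of at least 500 UMIs, at least 200 genes and at most 20% mitochondrial UMIs, with medians of 4380.0, 3948.0 and 4425.0 UMIs. Between 23 and 33 of these barcodes were shared by a pair of libraries. By their markers, 24117 of the 29513 barcodes (81.7%) could be placed in 1 cell type, and 13 types with at least 40 cells in every library held 20661 (70.0%). All gate markers of 12 of these types stood out in the barcodes placed there, which had been placed by those same markers. For CD4, CD8 and gamma-delta T cells these were the 8 general T cell markers, and in gamma-delta T cells 4 of the 8 stood out. The genes that stood out most in gamma-delta T cells began with Trdc, Il17a, Cd163l1 and Tcrg-C1, of which Trdc and Tcrg-C1 also served to place them. Immature T-lineage cells numbered 745 in PBS, 716 in PD-L1 and, in the AI-Exo library, 0, so that class has no AI-Exo value. Cells with tumour-like epithelial markers were few, at 39, 16 and 30, so the values below describe mainly leukocytes. In the barcodes outside the mitochondrial limit, 88, 95 and 68 in number, Hspa1 stood at 666.6, 195.1 and 215.7 CPM, against 1357, 1039 and 607.5 in those inside it. CPM is the UMIs of a gene per 1000000 UMIs of the cell type in that library.

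In the PBS library Hspa1 was most abundant in both monocyte types and cDC2 and lowest in alveolar macrophages, NK cells and neutrophils. Its level there ran from 4453 CPM [4238 to 4676] in nonclassical monocytes to 342.6 CPM [325.5 to 360.3] in alveolar macrophages, a 13-fold span. Below nonclassical monocytes came conventional dendritic cells of type 2 (cDC2) at 2874, monocytes at 2690.0, CD4 T cells at 2102, B cells at 1509 and cDC1 at 1452. Of these neighbours only B cells and cDC1 had overlapping intervals. Further down, macrophages stood at 1186, CD8 T cells at 1033, migratory dendritic cells at 1013, gamma-delta T cells at 737.1, neutrophils at 721.4 and NK cells at 597.5, and the intervals overlapped for CD8 T cells with migratory dendritic cells and for gamma-delta T cells with neutrophils. Tumour-like epithelial cells carried 50.96, 50.06 and 28.46 CPM in PBS, PD-L1 and AI-Exo, far below any of the 13 types.

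That order was not the same in the other libraries, and cDC2 stood lower in it in both, at 1445 and 499.3 CPM. In PD-L1 the span was 15.6-fold, from nonclassical monocytes at 5509 CPM to alveolar macrophages at 353.6, and macrophages at 2311 and migratory dendritic cells at 2067 came next after monocytes at 2364. In AI-Exo it narrowed to 6.99-fold, from migratory dendritic cells at 1623 CPM to NK cells at 232.1. The top 4 types of AI-Exo, migratory dendritic cells, nonclassical monocytes (1483), macrophages (1425) and cDC1 (1406), overlapped in their intervals from each to the next.

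**Figure D1:**
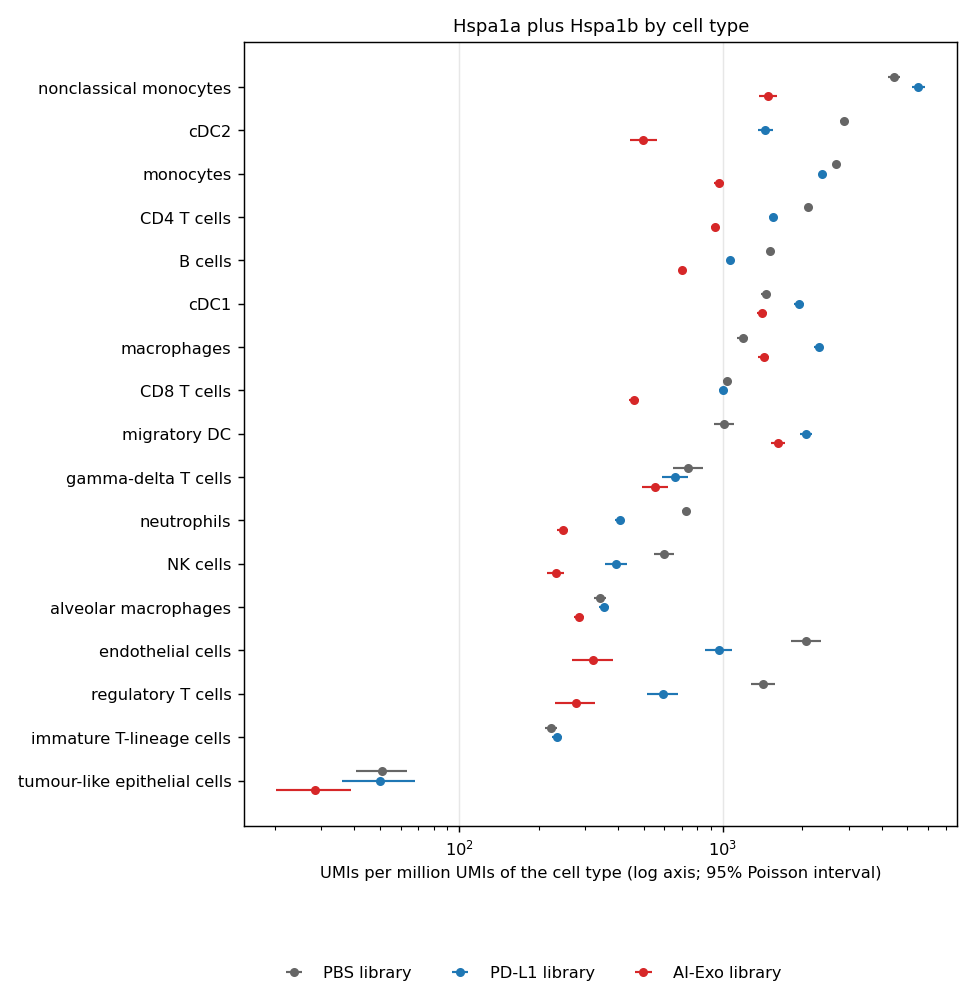
Hspa1a plus Hspa1b by cell type, in CPM on a log axis, with 1 point per library and 95% Poisson bars that cover counting error only. The AI-Exo points lie left of the PBS points in most types, while in macrophages and migratory DC the PD-L1 and AI-Exo points lie right of PBS, and tumour-like epithelial cells sit near 50 CPM or below.

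Compared with PBS, Hspa1 was lower in the AI-Exo library in 11 of the 13 cell types, in 8 of them by a ratio of 1.5 or more, and higher by that size in 1. Ratios are log2 of CPM plus 10 in one library over CPM plus 10 in the other. Their median over the types was -1.15. The count interval of AI-Exo lay wholly under that of PBS in 10 of 13 types. In the PD-L1 library Hspa1 was lower than in PBS by the same size in 3 types and higher in 2, with a median of -0.16. AI-Exo was below PD-L1 in 13 of 13 types, and in 9 of them by the size. Without the 5 cells richest in Hspa1 it was below in 12, as the gamma-delta T cell ratio of -0.24 came to 0.21. Both comparisons with PBS share the PBS library.

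Lymphocytes and granulocytes were ordered PBS, PD-L1, AI-Exo. B cells carried 1509 CPM [1476 to 1543] of Hspa1 in PBS, 1062 [1040 to 1084] in PD-L1 and, in the AI-Exo library, 698.2 [684.1 to 712.5], ratios to PBS of -0.50 and -1.10. CD4 T cells stood at 2102, 1544 and 931.5 CPM, and CD8 T cells at 1033, 997.6 and 460.1. The CD8 T cell intervals of PBS and PD-L1 overlapped, so only AI-Exo stood apart there, at -1.15 [-1.23 to -1.07] against PBS. NK cells had 597.5, 392.9 and 232.1 CPM and neutrophils 721.4, 406.3 and 246.9. The AI-Exo ratio of neutrophils was -1.51 [-1.59 to -1.43]. Gamma-delta T cells showed the smallest gap among lymphocytes, with 737.1, 656.4 and 553.0 CPM and an AI-Exo ratio of -0.41 [-0.65 to -0.16].

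Phagocytes and dendritic cells were less uniform. Monocytes carried 2690.0 CPM [2655 to 2726] in PBS, 2364 [2303 to 2425] in PD-L1 and, in the AI-Exo library, 966.1 [926.2 to 1007]. Nonclassical monocytes carried 4453, 5509 [5196 to 5837] and 1483 [1373 to 1601], so PD-L1 was the highest library there, and AI-Exo stood at -1.58 against PBS and at -1.89 against PD-L1. In cDC2 the levels were 2874 [2772 to 2979], 1445 [1354 to 1541] and 499.3 [443.2 to 560.5], and the AI-Exo ratio of -2.50 was the lowest of all types. These 3 types shared a low AI-Exo value and differed in where PD-L1 lay.

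Macrophages, cDC1 and migratory dendritic cells had their highest Hspa1 in PD-L1. Macrophages stood at 1186 CPM [1133 to 1240] in PBS, 2311 [2219 to 2405] in PD-L1 and, in the AI-Exo library, 1425 [1356 to 1496]. Migratory dendritic cells, the mature form that carries antigen to lymph nodes, stood at 1013 [927.2 to 1105], 2067 [1966 to 2172] and 1623 [1526 to 1725]. Their ratios to PBS were 1.02 in PD-L1 and 0.67 in AI-Exo, but they came from 44, 63 and 60 cells, and the mean of each cell's own CPM gave 0.57 and 0.13. For cDC1 the levels were 1452, 1948 and 1406, with the PBS and AI-Exo intervals overlapping. Alveolar macrophages were nearly level, at 342.6, 353.6 and 284.6.

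Smaller classes outside the 13 types included regulatory T cells, at 1421, 590.6 and 276.1 CPM in 35, 46 and 53 cells, and endothelial cells, at 2066, 962.2 and 320.5 CPM in 19, 70 and 41 cells. Both had the order PBS, PD-L1, AI-Exo. Fibroblasts, with 10, 9 and 16 cells, ran the other way at 483.3, 1208 and 1472 CPM. Immature T-lineage cells were low, with 223.5 CPM in PBS and 235.2 in PD-L1. Within neutrophils, cells high in Ccl3 and Cxcl3 carried 838.8, 587.0 and 293.7 CPM and cells low in them 691.8, 364.0 and 285.1, so the order held in both states. These states made up 35.5%, 23.3% and 30.6% and 62.5%, 74.3% and 61.0% of neutrophils. Granule-rich neutrophils, 1.99%, 2.39% and 8.44% of the class, had 208.3, 79.6 and 118.0 CPM.

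The share of cells with an Hspa1 UMI moved with the level in several types but not in all. It was taken after thinning each cell to 1000 UMIs, since depth differs between types and libraries, and shallower cells were left out (52, 70 and 92 neutrophils in PBS, PD-L1 and AI-Exo, 16, 21 and 28 B cells and at most 8 cells of each other type and library). Among monocytes 61.9% [58.9 to 65.0] had such a UMI in PBS, 50.2% [45.4 to 55.1] in PD-L1 and, in the AI-Exo library, 27.3% [21.9 to 33.2] (unthinned 81.5%, 69.6% and 56.5%). Nonclassical monocytes gave 70.4%, 77.8% and 30.4% (unthinned 80.3%, 86.7% and 39.1%), and B cells 40.2%, 28.9% and 24.6% (unthinned 55.5%, 43.1% and 36.0%). The thinned AI-Exo interval lay under the PBS interval in 8 of 13 types. The PD-L1 share was below that of PBS in 10 of 13 types, while the PD-L1 level was below in 8. In cDC1, where the level was highest in PD-L1, the shares were 59.43%, 58.46% and 45.45%, with overlapping intervals.

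Macrophages (41.8%, 55.8% and 42.9%) and migratory dendritic cells (36.4%, 55.6% and 53.3%) had overlapping intervals in all 3 libraries at this depth. Thinned to 500 UMIs, PBS and PD-L1 macrophages were apart, at 28.7% [21.3 to 37.1] and 47.4% [37.2 to 57.8], while at 2000 UMIs and unthinned they overlapped. Tumour-like epithelial cells, with the lowest level, had a UMI in 1 of 39, 1 of 16 and 0 of 30 thinned cells, the last with an upper bound of 11.6%, while their unthinned shares at medians of 37578, 52981 and 44496 UMIs were 64.1%, 56.3% and 46.7%. Every one of the 13 types lay above these thinned values in every library. Hspa1 was unevenly spread within a type. The 5% of cells with most Hspa1 held between 19.2% and 79.9% of its UMIs, the highest value being that of AI-Exo neutrophils, where 1.91% of cells had 3 or more.

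**Figure D2:**
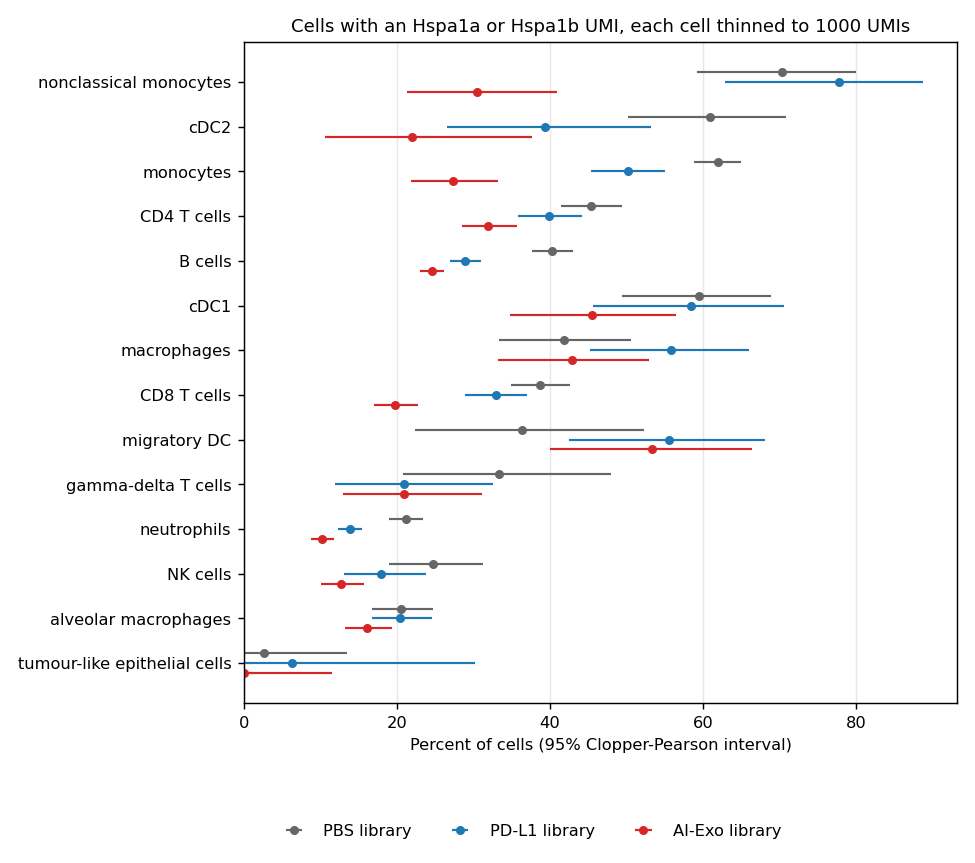
Percent of cells with an Hspa1a or Hspa1b UMI after thinning each cell to 1000 UMIs, by cell type, with 1 point per library and 95% Clopper-Pearson bars. In monocytes the 3 libraries stand at 61.9%, 50.2% and 27.3%, and in macrophages and migratory DC the bars of the libraries overlap.

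The 2 Hspa1 genes differed in how low they stood in AI-Exo. Hspa1b made up a median of 38.6% of Hspa1 UMIs over the 13 types in PBS, 41.7% in PD-L1 and, in the AI-Exo library, 29.6%. It was below PBS in AI-Exo in 13 of 13 types and in PD-L1 in 4 of 13. In monocytes the percentages were 31.5 [30.9 to 32.1], 31.1 [29.9 to 32.3] and 20.6 [18.9 to 22.3], in nonclassical monocytes 43.4, 43.1 and 26.8, and in B cells 38.6, 41.7 and 30.7. The AI-Exo interval was clear of both others in each of these 3 types, whereas in cDC2 (31.0%, 30.7% and 29.6%) all 3 overlapped. The PBS and AI-Exo intervals also overlapped in CD8 T cells (42.49% and 40.68%), gamma-delta T cells (44.25% and 41.08%) and macrophages (30.32% and 26.76%).

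Levels show the same split. Hspa1b in monocytes was at 847.8, 734.8 and 198.7 CPM and Hspa1a at 1842, 1629 and 767.4. In alveolar macrophages Hspa1a was level at 198.1, 204.5 and 198.6 CPM while Hspa1b stood at 144.5, 149.1 and 86.02. Against PD-L1, Hspa1b was lower in AI-Exo by the size in 13 of 13 types and Hspa1a in 4 of 13. Over all kept barcodes Hspa1b made up 35.7%, 39.6% and 28.9%, and in free RNA, taken from barcodes of at most 100 UMIs, 36.9%, 38.0% and 34.99%, a smaller gap than inside cells. In tumour-like epithelial cells Hspa1b was the main copy in all 3 libraries, at 64.3%, 80.5% and 74.4% of 84, 41 and 39 UMIs, of which free RNA could make up as much as 67.9%, 45.7% and 42.3%.

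**Figure D3:**
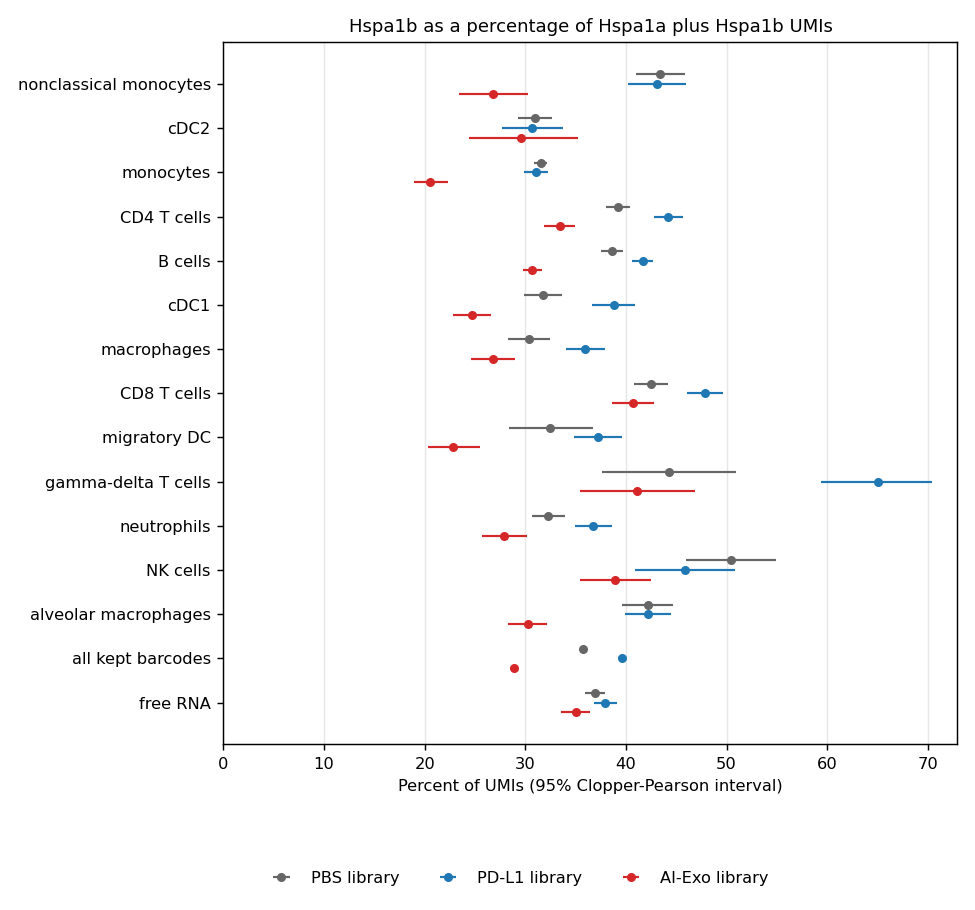
Hspa1b as a percentage of Hspa1a plus Hspa1b UMIs, by cell type and library, with 95% Clopper-Pearson bars. The AI-Exo point is left of the PBS point in all 13 types, with medians of 29.6% against 38.6%, and the free RNA points lie closer together. In CD8 T cells, gamma-delta T cells, macrophages and cDC2 the AI-Exo and PBS bars overlap.

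Dnajb1, the J-domain partner of Hsp70, was lower in AI-Exo than in PBS by the size in B, CD4 T, CD8 T and NK cells, as Hspa1 was. In B cells it stood at 224.0, 127.0 and 121.9 CPM in PBS, PD-L1 and AI-Exo, in CD4 T cells at 344.7, 249.3 and 188.8, and in NK cells at 237.8, 121.3 and 110.3. In B and NK cells both treated libraries were thus near each other and below PBS. Against PBS, Dnajb1 in AI-Exo was lower by the size in 8 of 13 types and higher in 2, macrophages (72.15, 159.4 and 181.5 CPM) and migratory dendritic cells (31.92, 79.26 and 104.3 CPM). Its level in tumour-like epithelial cells, 424.7, 352.9 and 436.4 CPM, was above that of any of the 13 types in the same library, the reverse of Hspa1. At 68, 63 and 70 UMIs the Dnajb1 of gamma-delta T cells rested on few cells: without the 5 richest in each library the PD-L1 ratio to PBS of -0.67 turned to 0.60 and the AI-Exo ratio of -0.72 to 0.76.

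Hsph1, which exchanges the nucleotide of Hsp70, was highest in T cells, with 401.3, 280.6 and 263.7 CPM in CD4 T cells, and lowest in neutrophils, with 32.04, 15.93 and 19.5. B cells carried 261.7, 202.3 and 151.3 CPM. It was lower in AI-Exo than in PBS by the size in 6 types, most in cDC2 (175.7, 100 and 24.36 CPM), and higher in 2, macrophages (96.82, 157.4 and 248.6) and cDC1 (111.2, 254.6 and 223.8). The macrophage excess of AI-Exo over PD-L1, 0.63, turned to -0.10 without the 5 richest cells of each library.

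Bag3 was low in B cells and neutrophils and higher in monocytes, macrophages and stromal cells. Nonclassical monocytes carried 306.4, 248.9 and 111.5 CPM and monocytes 109.7, 111.5 and 31.45, against 6.588, 5.84 and 9.506 in B cells and 7.782, 10.22 and 13.4 in neutrophils. Fibroblasts, few as they were, had 493.4, 366.0 and 317.6, and tumour-like epithelial cells 75.23, 72.04 and 78.81. Its AI-Exo ratio to PBS was -1.53 in monocytes and 1.17 in macrophages, where the levels were 64.75, 166.1 and 157.9 CPM. In nonclassical monocytes that ratio, -1.38, came to 0.07 when the gate asked for 1 marker more.

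Hsp90aa1 was abundant everywhere and varied less. Nonclassical monocytes had 2004, 2053 and 948.0 CPM, CD4 T cells 1380.0, 1060.0 and 1095, and neutrophils 692.6, 476.7 and 461.9. In AI-Exo it was lower than in PBS by the size in 2 of 13 types, nonclassical monocytes at -1.07 and cDC2 at -1.21, and higher in 1, migratory dendritic cells (428.9, 787.3 and 722.0 CPM). Pooling Dnajb1, Hsph1, Bag3 and Hsp90aa1, 19 of 51 gene and type pairs were lower in AI-Exo than in PBS by the size and 8 were higher. In PD-L1 6 were lower and 13 higher. The share of all genes past the size differed widely by type. In AI-Exo against PBS 0.158% were higher and 0.697% lower in B cells, and 16.8% and 12.5% in nonclassical monocytes. No pooled share was worked out, so nothing is read from these pooled counts.

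Hspa8 and the mitochondrial pair were nearer to level between libraries. Of 39 pairs of Hspa8, Hspe1 or Hspd1 with a cell type, 0 were lower and 0 higher by the size in AI-Exo against PBS, and 0 and 3 in PD-L1. In AI-Exo against PD-L1, 3 were lower and 0 higher. The lower ones were Hspa8 and Hspd1 in nonclassical monocytes and Hspd1 in gamma-delta T cells. No pooled share of all genes was worked out for these counts. Hspa8 in monocytes was at 1664, 1403 and 1415 CPM, in CD8 T cells at 1153, 1286 and 1153, and in neutrophils, its lowest type, at 350.4, 290.6 and 315.7. Its AI-Exo ratios lay between -0.32 and 0.52. Hspe1 was at 511.3, 528.1 and 389.3 CPM in B cells and 36.85, 47.78 and 41.88 in neutrophils, and Hspd1 at 146.3, 152.4 and 104.9 and at 18.31, 20.58 and 16.45. The 3 higher pairs in PD-L1 were Hspe1 and Hspd1 in nonclassical monocytes (110.4 and 215.4, 33.13 and 81.37 CPM in PBS and PD-L1) and Hspe1 in macrophages (285.5 and 442.6). Without the 5 richest cells 1 of these 3 was still past the size, Hspd1 in nonclassical monocytes, which then passed it in AI-Exo too, and Hspa8 was past it in migratory dendritic cells in PD-L1 and AI-Exo. Immature T-lineage cells also had more in PD-L1, with Hspd1 at 221.9 and 469.6 and Hspe1 at 425.1 and 700.0 CPM. Tumour-like epithelial cells had 989.5, 1608 and 1136 CPM of Hspe1 and 581.8, 877.9 and 586.7 of Hspd1, above all 13 types, so low Hspa1 there went with high chaperonin transcripts.

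Hspb1 was carried by few leukocytes and many stromal cells. Fibroblasts had 3373, 2141 and 3245 CPM and endothelial cells 810.3, 794.3 and 470.6, while tumour-like epithelial cells had 1, 1 and 0 UMIs. In B cells it stood at 131.0, 58.28 and 37.57 CPM, with a UMI in 116 of 1338, 115 of 1923 and 143 of 2985 cells. Most other ratios of this gene rest on a handful of cells. The 278.4 CPM of PD-L1 macrophages came from 290 UMIs in 13 of 97 cells, of which 100 and 56 lay in the 2 richest cells, against 32.07 in PBS and 25.3 in AI-Exo. In gamma-delta T cells of AI-Exo 33 of 35 UMIs were in 1 cell, and in AI-Exo neutrophils 71 of 118. CD4 T cells had 27, 71 and 107 UMIs in 9, 10 and 18 cells.

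**Figure D4:**
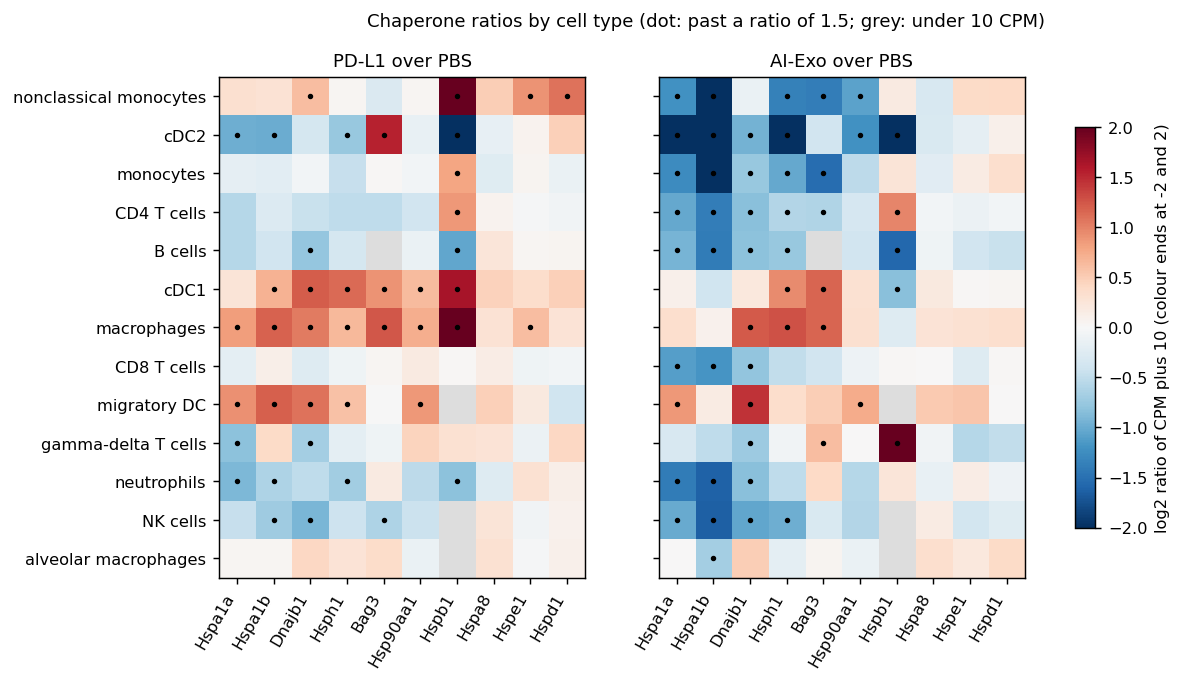
log2 ratios of CPM plus 10 for each gene (columns) and cell type (rows), PD-L1 over PBS at left and AI-Exo over PBS at right, red for higher and blue for lower than PBS, with a dot past a ratio of 1.5 and grey under a mean of 10 CPM. Blue in AI-Exo runs through Hspa1a, Hspa1b and Dnajb1 in lymphocytes, neutrophils and monocytes, macrophages are red in PD-L1, and the columns of Hspa8, Hspe1 and Hspd1 stay pale.

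The counts of members past the size can be read beside those of all genes in the 7 largest types. Genes were counted where their mean over the 3 libraries was at least 10 CPM. That left out Bag3 in B cells and Hspb1 in NK cells and alveolar macrophages. In B cells 0 of 9 members were higher and 2 lower in PD-L1 than in PBS, and 0 higher and 5 lower in AI-Exo. Of all 7599 genes there, 0.697% were higher and 0.329% lower in PD-L1, and 0.158% higher and 0.697% lower in AI-Exo. The 5 were Hspa1a, Hspa1b, Hspb1, Dnajb1 and Hsph1, and the median AI-Exo ratio of the members was -0.75 against -0.01 for all genes. In the other large types the member median ran from -0.65 in monocytes to 0.06 in alveolar macrophages. The medians of all genes there lay between -0.04 and 0.02.

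T and NK cells gave the following counts. CD4 T cells had 1 of 10 members higher (Hspb1) and 0 lower in PD-L1, with 1.54% and 1.79% of all genes, and 1 higher (Hspb1) and 5 lower in AI-Exo, with 1.91% and 2.17%. Without the 5 cells richest in each gene, Hspb1 was no longer past the size in either library and Bag3 was lower by it in PD-L1. CD8 T cells had 0 higher and 0 lower of 10 in PD-L1, with 1.98% and 0.869% of all genes, and 0 higher and 3 lower (Hspa1a, Hspa1b and Dnajb1) in AI-Exo, with 2.95% and 2.45%. NK cells had 0 higher and 3 lower of 9 in PD-L1 (Hspa1b, Dnajb1 and Bag3), with 3.84% and 4.49% of all genes, and 0 higher and 4 lower in AI-Exo, with 3.39% and 3.87%. Since the list was drawn up with these contrasts known, nothing is read from how its share compares with that of all genes, here or in the other types.

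In the myeloid types, neutrophils had 0 of 10 members higher and 4 lower in PD-L1 (Hspa1a, Hspa1b, Hspb1 and Hsph1), with 3.35% and 3.59% of all genes, and 0 higher and 3 lower in AI-Exo, with 4.05% and 2.87%. Monocytes had 1 higher (Hspb1) and 0 lower in PD-L1, with 9.17% and 7.15% of all genes, and 0 higher and 5 lower in AI-Exo (Hspa1a, Hspa1b, Dnajb1, Hsph1 and Bag3), with 4.81% and 3.83%. Without the 5 richest cells the monocyte counts were 0 higher and 1 lower (Hsph1) in PD-L1 and 0 and 6 in AI-Exo. Their median depth was 8020 UMIs in PBS, 4881 in PD-L1 and, in the AI-Exo library, 7909, and its part in these counts was not tested. Alveolar macrophages had 0 higher and 0 lower of 9 in PD-L1, with 0.616% and 0.21% of all genes, and 0 higher and 1 lower (Hspa1b) in AI-Exo, with 1.53% and 1.19%. In the 7 largest types together, 26 of 67 member and type pairs were lower in AI-Exo than in PBS and 1 was higher, against 9 and 2 in PD-L1. Over all 13 types, 39 of 126 pairs were lower and 11 higher in AI-Exo, against 15 and 26 in PD-L1. No pooled share of all genes was worked out, so nothing is read from these totals.

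Smaller types pointed in both directions, on fewer cells and with more of all genes past the size. Macrophages had 8 of 10 members higher in PD-L1 than in PBS, all but Hspa8 and Hspd1, with 5.67% of all genes, and 7 without the 5 cells richest in each gene. In cDC1 6 of 10 members were higher in PD-L1, with 4.61% of all genes, and 5 without those cells. Migratory dendritic cells had 5 of 9 higher in PD-L1, with 8.62% of all genes, and 3 in AI-Exo, with 10.7%, counts that came to 6 and 7 without those cells. In cDC2 6 of 10 were lower in AI-Exo than in PBS, with 8.58% of all genes, and 5 without those cells. Nonclassical monocytes had 5 of 10 lower in AI-Exo than in PBS, with 12.5% of all genes, and 9 of 10 lower than in PD-L1, with 13.4%. Without those cells the 5 stayed at 5 and the 9 came to 5.

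Related genes seldom passed the size in the 7 largest types and did so more often in smaller ones. Of 44 other HSF1-driven genes and co-chaperones, 38 were measured in B cells and 0 passed the size in AI-Exo against PBS, with a median of -0.12 against -0.01 for all genes and the J-domain gene Dnaja1 lowest at -0.43 (464.8 and 343.3 CPM). In monocytes 1 of 37 was lower, Dnaja1 at -0.94 (729.2 and 375.6 CPM), beside 3.83% of all genes. In neutrophils 2 of 31 were lower, with Dedd2 lowest at -0.66, beside 2.87% of all genes. Of the 10 mitochondrial chaperones and proteases, 0 of 10 passed the size in B, CD4 T and CD8 T cells and alveolar macrophages, and 1 of 8 was higher in monocytes (Htra2 at 0.62). Of 21 endoplasmic reticulum stress genes, 0 of 20 measured in B cells and 0 of 19 in CD4 T cells passed it. In neutrophils 0 were higher and 2 lower of 17, beside 4.05% and 2.87% of all genes, with Ddit3 lowest at -0.92 (614.5 and 320.9 CPM). In CD8 T and NK cells 2 of 20 were higher and 0 lower, with Sdf2l1 (0.63) and Calr (0.795) highest. In monocytes and alveolar macrophages 1 of 20 was higher and 0 lower, with Ddit3 (0.69) and Ppp1r15a (0.795) highest. In these types, in that order, 2.95%, 3.39%, 4.81% and 1.53% of all genes were higher. Dnaja1 was the lowest co-chaperone in 4 of the 7 types. In nonclassical monocytes 8 of 37 co-chaperone genes were higher in AI-Exo and 5 lower, with 16.8% and 12.5% of all genes. In cDC2 8 of 20 endoplasmic reticulum stress genes were higher, with 8.52% of all genes and Ddit3 highest at 1.37 (22.09 and 73.07 CPM). In gamma-delta T cells 3 of 10 mitochondrial genes were lower, with 14.8% of all genes.

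Fos and Jun were kept apart from the chaperones and moved with them in part. Fos in B cells was at 2364, 1962 and 1350.0 CPM in PBS, PD-L1 and AI-Exo, and in neutrophils at 8795, 7223 and 5138. In AI-Exo it was lower than in PBS by the size in 6 of 13 types and Jun in 4. The Hspa1 ratio lay below that of Fos in 13 of 13 types and below that of Jun in 12. In migratory dendritic cells Fos stood at 448.8, 1058 and 1078 CPM and in macrophages at 2833, 4123 and 3849, highest outside PBS as Hspa1 was. Of 20 immediate early genes, 7 were lower and 1 higher in AI-Exo neutrophils, beside 2.87% and 4.05% of all genes. Jund was the lowest there at -1.18 (4851 and 2134 CPM). In B cells 1 of 19 was lower, beside 0.697% of all genes. The direction was the other one in migratory dendritic cells, with 11 of 17 higher and 1 lower beside 10.7% of all genes higher, and in cDC1, with 8 of 19 higher and 0 lower beside 4.17%. The part of handling and dissociation in the chaperone values was not tested.

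Free RNA carried more Hspa1 than the cells, at 2576, 1857 and 1122 CPM against 1357, 1039 and 607.5, in the same order of libraries. Genes that a type should lack set an upper bound on its share in each type. The bound came to between 1.27% and 57.3% of Hspa1 UMIs in PBS (median 5.45%), 0.827% and 19.7% in PD-L1 and 0.814% and 19.2% in AI-Exo. These ranges are over the 13 types. In tumour-like epithelial cells the bound was 67.9%, 45.7% and 42.3%, so much of their few Hspa1 UMIs could be free RNA. The highest PBS bound among the 13, in CD4 T cells, rested on 1 barcode that held 3272 of 3428 S100a8 and S100a9 UMIs, and with the richest barcode of each type left out the highest was 23.6%. Taking the bound off left 8 types lower in AI-Exo than in PBS by the size, as before.

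Cells with Hspa1 also carried more of its partners. Within a type and library, cells with and without an Hspa1 UMI after thinning were compared in 33 class and library pairs that had at least 20 of each. Hsph1 was higher in cells with the UMI in 33 of 33 pairs, with a median log2 ratio of 2.26, Dnajb1 in 33 with 1.61 and Hsp90aa1 in 33 with 1.31. Bag3 was higher in 28 with a median of 1.07, Hspd1 in 31 with 0.68, Hspe1 in 29 with 0.61 and Hspa8 in 31 with 0.55. The link was not particular to the members. Fos (0.92) and Jun (0.97) were also higher in 33 of 33. Hsp90ab1, another Hsp90 gene and no member, was higher in 30 with 0.78, above the medians of Hspd1, Hspe1 and Hspa8. The endoplasmic reticulum chaperone Hspa5 was higher in 21, with 0.14. The interval lay wholly above 0 in 27 pairs for Hsph1, 20 for Dnajb1 and 30 for Hsp90aa1. For Bag3, Hspd1, Hspe1, Hspa8 and Hsp90ab1 it did so in 15, 11, 14, 24 and 24. Hspb1 was higher in 20 of the 33 pairs, fewer than any other member listed, with a median of 0.63. It had few UMIs in several types, which limits what that count can show.

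**Figure D5:**
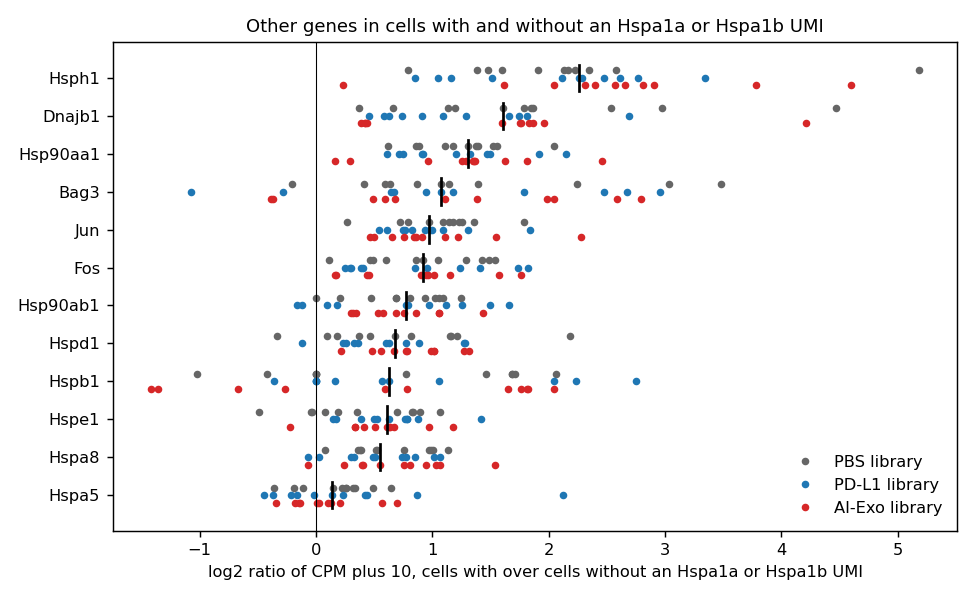
log2 ratio of CPM plus 10 of each gene in cells with over cells without an Hspa1a or Hspa1b UMI, 1 point per cell type and library (33 points a gene), with a black bar at the median. Hsph1 (2.26), Dnajb1 (1.61) and Hsp90aa1 (1.31) lie right of 0 in all points, and Hspa5 (0.14) is spread around 0.

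The genes most like Hspa1 in level were sought over 30 points, 10 cell types in 3 libraries, among 5830 other genes, by Pearson's correlation of log2 of CPM plus 10. The points share libraries, depth and free RNA, so this is a description. Bmyc (0.77), Rraga (0.76) and Susd3 (0.75) came first, then Pip4k2a, Hspb11, Plekho1, Bst2, Ass1, Mrpl54 and Eif2b2 (0.70). Ranks (Spearman) kept 7 of these 10. When each gene was centred within its cell type, so that only the libraries differ, 0 of the 10 were kept, and Bcl6 (0.86), Fos (0.85), Rsrp1 (0.84), Rab21 (0.84) and Ubb (0.83) led. By that measure Hsp90aa1 stood at 0.80, Dnajb1 at 0.79, Hsph1 at 0.71, Bag3 at 0.44, Hspe1 at 0.42, Hspa8 at 0.29, Hspd1 at 0.16 and Hspb1 at 0.14. Without centring, Hspb1 was the highest of these members at 0.61 and Hspd1 the lowest at 0.18.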

How the data were processed

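The authors deposited raw UMI counts, with a whole number for each gene in each barcode, for 3 libraries (PBS, PD-L1 and AI-Exo, 1 per group). Cell Ranger 7.1.0 made the matrices per the file headers, and the submitters' processing notes list 3.0.2. No source used here names the build or annotation, or says how intronic reads were treated. Matrices held all barcodes (840360, 794333 and 858023), and the barcodes kept held 64594803, 61813852 and 72142040 UMIs.

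Barcodes with at least 500 UMIs, 200 genes and at most 20% mitochondrial UMIs were kept. A barcode was placed in the type with the largest share of its gate markers detected, if at least 3 were and that share was at least 1.5 times the next type's, and otherwise left out. T cells were split by the CD4, CD8, gamma-delta, Foxp3 and precursor genes. Scrublet (scanpy 1.11.5) marked 1, 0 and 0 doublets at its automatic threshold, so barcodes carrying markers of 2 types were left out, and a score of 0.15 or more (4.82%, 5.68% and 6.30% of barcodes) was an alternative. UMIs were summed per type and library. Intervals are exact Poisson for CPM, exact Clopper-Pearson for shares and from the 2 counts for ratios, all at 95%. They cover counting error only, and UMIs of 1 cell are not independent samples. A gene was called higher or lower at a ratio of 1.5. Ratios used CPM plus 10, which pulls those of low genes toward 0. No test was made. The calculation of ratios and intervals was tested on simulated data. Python 3.11.15, numpy 2.4.6, scipy 1.17.1, pandas 2.3.3 and matplotlib 3.10.9 were used.

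The members, the marker lists and the gene lists were chosen with earlier results of these data known. All 10 members are named, and of each list only the lowest or highest gene in a comparison. Genes like Hspa1 are the 10 with the highest correlation. Sequences came from RefSeq (GRCm38.p6) by symbol and transcripts from GENCODE vM21. Alternatives were the barcode filters, the gate, doublets, scaling, pseudocount, cell means, free RNA, cell states, thinning, the size of the ratio, the CPM minimum and the correlation. Leaving out the 5 cells richest in a gene, and the barcode richest in free RNA reference genes, was chosen after seeing the data.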

Additional observations from a re-analysis of the deposited data

Results flagged for a closer look

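Hspa1 differed in direction between 2 kinds of dendritic cell. In PD-L1 against PBS the log2 ratio was -0.99 in cDC2 and 1.02 in migratory dendritic cells. In AI-Exo against PBS it was -2.50 in cDC2 and 0.67 in migratory dendritic cells. Each value comes from 1 library per group and between 41 and 92 cells, and the difference between the types was not tested.

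Barcodes of at most 100 UMIs, which the comparisons do not use, carried Hspa1 at 2576 CPM in the PBS library, at 1857 in PD-L1 and at 1122 in AI-Exo. These are above the 1357, 1039 and 607.5 CPM of the kept barcodes, and they keep the order of the libraries.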

How the results depend on the processing

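With 1 library per group, nothing here measures variation between animals, and small types rest on few cells (41 cDC2 in AI-Exo, 44 migratory dendritic cells in PBS). Over 11 settings the number of the 13 types with Hspa1 past the size stayed at 8 or 9 lower in AI-Exo than in PBS, at 7 to 9 lower than in PD-L1 and at 2 or 3 lower in PD-L1 than in PBS, and 0 Hspa1 ratios past the size changed sign. With neutrophils split by state and regulatory T cells added (16 types), the counts were 11, 10 and 5. Counts of members past the size in the 7 largest types, 38 over both comparisons with PBS, came to 70 at a ratio of 5 to 4 and 16 at a ratio of 2. The 13-fold span in PBS was 15.34 less the free RNA bound, 15.25 less that bound without its richest barcode and 14.0 as a mean over cells. Centring within types kept 0 of the 10 genes most like Hspa1. Among ratios past the size, those of other members that changed sign were Bag3 in nonclassical monocytes, AI-Exo against PBS, with 1 marker more (0.073), Dnajb1 in cDC2, AI-Exo against PD-L1, as a mean over cells (0.18), and, without the 5 richest cells, Dnajb1 in gamma-delta T cells (0.60 in PD-L1 and 0.76 in AI-Exo against PBS) and Hsph1 in macrophages, AI-Exo against PD-L1 (-0.10). The cause was not tested. Hspa1 ratios under the size that changed sign in at least 1 setting were those of CD8 T cells and alveolar macrophages in PD-L1 against PBS, macrophages (0.26, lowest -0.11) and cDC1 in AI-Exo against PBS and gamma-delta T cells in AI-Exo against PD-L1. No paired analysis was possible because each group had 1 library. Where Hspb1 had under 10 UMIs in a library, its ratio was limited by depth.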
